A study of Mus musculus with 3 samples.

Results

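The genes of the tumour necrosis factor (TNF) superfamily measured here comprised its ligands, its receptors and the adaptor proteins that bind those receptors. They were chosen by name: all genes whose name in the scanner files began with Tnfsf or Tnfrsf, and those beginning with Traf followed by a digit, without Tnf and Tnfaip3. The rule took in 43 of the 27572 genes on the array, read by 60 probes. They were 11 ligands, 21 receptors, the 7 adaptors Traf1 to Traf7, the 3 TRAF3-interacting genes Traf3ip1, Traf3ip2 and Traf3ip3, and Psmg2. Psmg2, a chaperone of proteasome assembly, was taken in only through its older name Tnfsf5ip1 and is no member of the superfamily. It is still included wherever genes of the family are counted or summarised below. The receptor Relt is listed in the files as Tnfrsf19l. Fas, CD40 and other genes of the pathway with names of another form were read from a separate list of 48 genes.

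The cells were J774A.1, an established mouse macrophage-like line, kept for 6 h in 1 of 3 media. The first was EBSS (Earle's Balanced Salt Solution, which holds salts and glucose but no amino acids) with 10 µM of the p38 MAP kinase inhibitor SB202190, the second EBSS alone, and the third RPMI medium with 10% fetal bovine serum (RPMI). Serum is named by the design text for the RPMI medium only, and the sources used here do not say whether a solvent was added to EBSS alone. The design text can also be read as RPMI being present in all 3 media; the source names, which give it for 1, were followed. Whether both channels of a medium hold the same RNA extract is not stated, so the technical SE may or may not include the preparation of RNA. RNA of each medium was hybridised on 2 of 3 two-colour arrays, once per dye, so that each medium is 1 sample read in both dyes and no p-value between media could be computed.

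TNF superfamily ligands are trimeric proteins, mostly on the cell surface, that cluster their receptors. Receptors without a death domain recruit TRAF adaptors, which carry the signal to NF-kappaB and to the MAP kinases, p38 among them, while receptors with a death domain can also engage caspase 8. In macrophages the family controls inflammatory gene expression, survival, help to T and B cells and, through RANK (Tnfrsf11a), the step from macrophage precursor to osteoclast.

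A probe was taken as measured in a comparison when it was well above background in both channels of at least 1 of the media compared, and 24 of the 43 genes were measured in at least 1 comparison. Of these 24, 22 were well above background in all 6 channels, Tnfrsf26 was so in 5 and Tnfsf13b in 4. In contrast, 14 genes were well above background in none. Values of a channel are given as log2 intensity after normalization, and comparisons as log2 ratios with their technical standard error (SE). This SE comes from the spread, among probes of like intensity, of the sum of the ratios around the 3 arrays. Without error that sum would be 0. The SE holds no spread between cultures. Counting a gene as higher or lower took a log2 ratio of 1 or more in size, supported in direction by the array that carried both media and by the route through the other 2, with 0.5 or more on each. In all, 6 genes of the family were counted in some comparison: Tnfsf9, Tnfrsf11a, Tnfrsf12a, Tnfrsf13b, Traf1 and Traf5.

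Channels of the same medium in the 2 dyes correlated at 0.996 to 0.997 and channels of different media at 0.945 to 0.968. This was over the 10778 genes well above background in all 6 channels, by their brightest probe and after normalization between arrays. Between 40.1% and 49.9% of spots were well above background per channel. Of 10 macrophage markers, 9 were well above background in all 6 channels and Mrc1 was so in none. Of 19 markers of other cell types on the array, 12 were well above background in no channel and 2, S100a8 and Hba-a1, in all 6, neither counted in any comparison. The number of arrays limits the precision. In RNA from a whole culture, fewer cells with a transcript and less of it per cell cannot be told apart.

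Promoter windows of 3 of the 6 counted genes are shown, as their transcripts had the 3 largest log2 ratios in size among the genes of the family: Tnfrsf12a and Traf1, both lower with SB202190, and Tnfrsf11a, lower in both EBSS media than in RPMI. Each window runs from 250 bases before the start site to 50 bases after, on the strand of the gene, in RefSeq's annotation of GRCm38.p6. The Tnfrsf12a window lies at chr17:23677400-23677699 (minus strand), the Traf1 window at chr2:34961723-34962022 (minus strand) and the Tnfrsf11a window at chr1:105780473-105780772 (plus strand). Capitals mark a match to TGATGNAA, the letters of the CEBP-ATF element through which genes respond to amino acid shortage.
Tnfrsf12a: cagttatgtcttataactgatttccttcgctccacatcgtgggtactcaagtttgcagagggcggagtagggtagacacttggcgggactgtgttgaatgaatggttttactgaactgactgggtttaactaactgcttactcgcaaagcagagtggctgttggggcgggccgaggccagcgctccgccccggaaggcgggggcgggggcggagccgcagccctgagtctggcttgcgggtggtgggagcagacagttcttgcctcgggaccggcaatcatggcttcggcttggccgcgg
Traf1: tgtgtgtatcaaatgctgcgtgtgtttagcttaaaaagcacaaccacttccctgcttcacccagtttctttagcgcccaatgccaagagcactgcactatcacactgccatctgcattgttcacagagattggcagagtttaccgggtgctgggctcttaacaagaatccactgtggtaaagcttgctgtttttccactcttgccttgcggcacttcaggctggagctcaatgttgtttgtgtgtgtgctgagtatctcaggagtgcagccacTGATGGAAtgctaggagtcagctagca
Tnfrsf11a: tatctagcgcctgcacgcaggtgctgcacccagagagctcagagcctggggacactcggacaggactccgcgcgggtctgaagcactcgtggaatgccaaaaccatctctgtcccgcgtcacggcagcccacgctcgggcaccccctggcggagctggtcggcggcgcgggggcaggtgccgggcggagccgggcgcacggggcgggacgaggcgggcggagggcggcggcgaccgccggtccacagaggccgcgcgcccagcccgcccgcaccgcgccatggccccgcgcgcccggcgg
The match in Traf1, TGATGGAA, lies 23 to 30 bases downstream of the start site, counted as 0. The windows were searched on both strands for TGATGNAA, for TGANTCA (the AP-1 letters) and for the NF-kappaB consensus. The windows of 5 of the 6 counted genes were in the table, all but Tnfsf9, and that of Traf1 was the only one of them with any match. Of all 32851 promoter windows of this length, 3.97% held TGATGNAA, 7.81% held TGANTCA and 8.46% held the NF-kappaB consensus. Among the measured genes of the family, of which 19 had a window, TGANTCA was found for Tnfsf13, Tnfsf13b and Tnfsf14, and the NF-kappaB consensus for Traf3. The G and C content was 59.7% in the Tnfrsf12a window, 48.7% in that of Traf1 and 76.7% in that of Tnfrsf11a, against a median of 52.7% over all windows.

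EBSS against RPMI sets cells kept for 6 h without amino acids against cells in full medium, and as labelled the media also differ in serum and in the other components of RPMI. None of the 24 measured genes of the family was counted as higher in EBSS, and 3 were counted as lower: the receptors Tnfrsf11a and Tnfrsf13b and the adaptor Traf5. Of all 11874 genes measured in this comparison, 6.34% were counted as higher and 5.78% as lower. The median log2 ratio was -0.17 over the family and -0.03 over all measured genes, and 54.2% of the family lay within 0.5 of 0, against 64.9% of all genes. The largest log2 ratios of the family were -2.45 for Tnfrsf11a and 0.76 for Tnfsf9.

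Cells in EBSS with SB202190 were set against cells in EBSS alone, and the activity of p38 was not measured. Here 23 genes of the family were measured. Traf5 was counted as higher, where 3.02% of all 11690 measured genes were, and Tnfrsf12a, Tnfsf9 and Traf1 as lower, where 5.14% were. The median was 0.05 over the family and 0.02 over all measured genes. Higher genes made up 37.0% of all counted genes, but 50.3% with the scanner software's own normalization and 78.3% with each array centred on its median in place of loess.

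In EBSS with SB202190 against RPMI, none of 24 measured genes of the family was counted as higher (2.39% of all 11862) and Tnfrsf11a, Tnfrsf12a and Traf1 were counted as lower (4.17%). The median was -0.22 over the family and 0.00 over all measured genes. Higher genes made up 36.4% of all counted genes and 11.5% with median centring. The 3 comparisons come from the same 3 samples, and the log2 ratio of this one is the sum of the other two by construction, so they are given side by side and not as separate evidence. Median centring moved the median of all measured genes to -0.30 for EBSS over RPMI, 0.15 for SB202190 in EBSS and -0.13 for EBSS with SB202190 over RPMI, and values under it are to be read against those shifts.

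**Figure D1:**
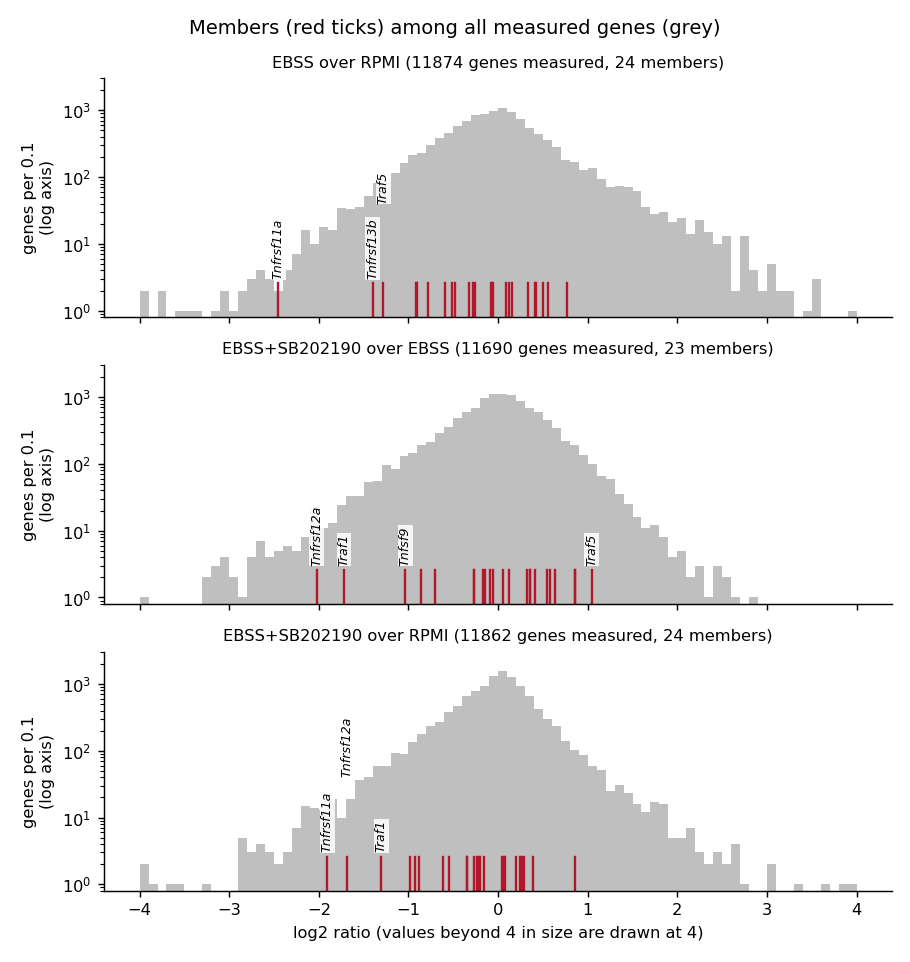
Number of genes (log axis) by log2 ratio in bins of 0.1, for the 3 comparisons, with all measured genes in grey and measured genes of the TNF superfamily as red ticks, named where counted. Ticks of the family lie between -2.45 and 0.76 for EBSS over RPMI, between -2.02 and 1.04 for SB202190 in EBSS and between -1.91 and 0.86 for EBSS with SB202190 over RPMI.

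Of the 11 ligands, 4 were measured. Tnfsf10, Tnfsf11, Tnfsf12, Tnfsf15, Tnfsf4 and Tnfsf8 were well above background in no channel and Tnfsf18 was so in 1. Among them are the ligand of RANK (Tnfsf11) and TWEAK (Tnfsf12), the ligand of Tnfrsf12a, so neither ligand of these receptors was measured.

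Tnfsf9, the 4-1BB ligand that costimulates T cells, was the only ligand counted. Its log2 intensities in Cy5 and Cy3 were 8.68 and 8.59 in EBSS with SB202190, 9.81 and 9.54 in EBSS, and 8.97 and 8.76 in RPMI. Both EBSS channels lay above the channels of the other media. The log2 ratio was -1.04 with SB202190 against EBSS (technical SE 0.14), a 2.05-fold lower level, and 0.76 in EBSS against RPMI. The array with both media gave -1.23 for SB202190 in EBSS and the other path -0.66. This call was lost under 4 of 13 alternatives (median centring, no background correction, the path through the other 2 arrays alone, and outlying local backgrounds kept), where the ratio was -0.60 at the nearest to 0. Not all of the 13 could end a call, here and below. A lower threshold and leaving out the filter on dim probes only relax the rule for the same ratios. Where a single probe was measured and was well above background in every channel, the stricter filter and the median over probes repeat the main result. The authors' series table repeats the software's ratio. The Tnfsf9 probe lies at chr17:56792441-56792500 on build mm8. Probe positions here and below are those in the files, and whether they fall in a coding exon or a UTR was not analysed here.

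Tnfsf14 (LIGHT), a ligand of the lymphotoxin beta receptor and of HVEM, ran the other way. It had log2 intensities of 8.56 and 8.67 in EBSS with SB202190, 7.84 and 7.61 in EBSS, and 8.21 and 8.27 in RPMI, so the EBSS channels were the lowest. Its log2 ratios of 0.85 with SB202190 against EBSS and -0.59 in EBSS against RPMI (technical SE 0.15) were below the counting threshold, and the first passed it, at 1.26, with the software's normalization. Tnfsf13b (BAFF), the survival factor of B cells, had 7.36 and 7.19 in EBSS with SB202190, 7.29 and 7.21 in EBSS, and 8.26 and 8.10 in RPMI. Only 1 of its 2 channels was well above background in either EBSS medium, so it was not measured between them. It was measured against RPMI only through RPMI, where its level was higher. Its log2 ratios against RPMI were -0.88 in EBSS with SB202190 and -0.91 in EBSS (technical SE 0.20), and -1.55 and -1.69 with the software's normalization, both counted there. Tnfsf13 (APRIL), a related ligand of B cells, lay between 8.62 and 8.87 in all 6 channels, with log2 ratios of -0.09, 0.12 and 0.04 for SB202190 in EBSS, EBSS over RPMI and EBSS with SB202190 over RPMI.

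**Figure D2:**
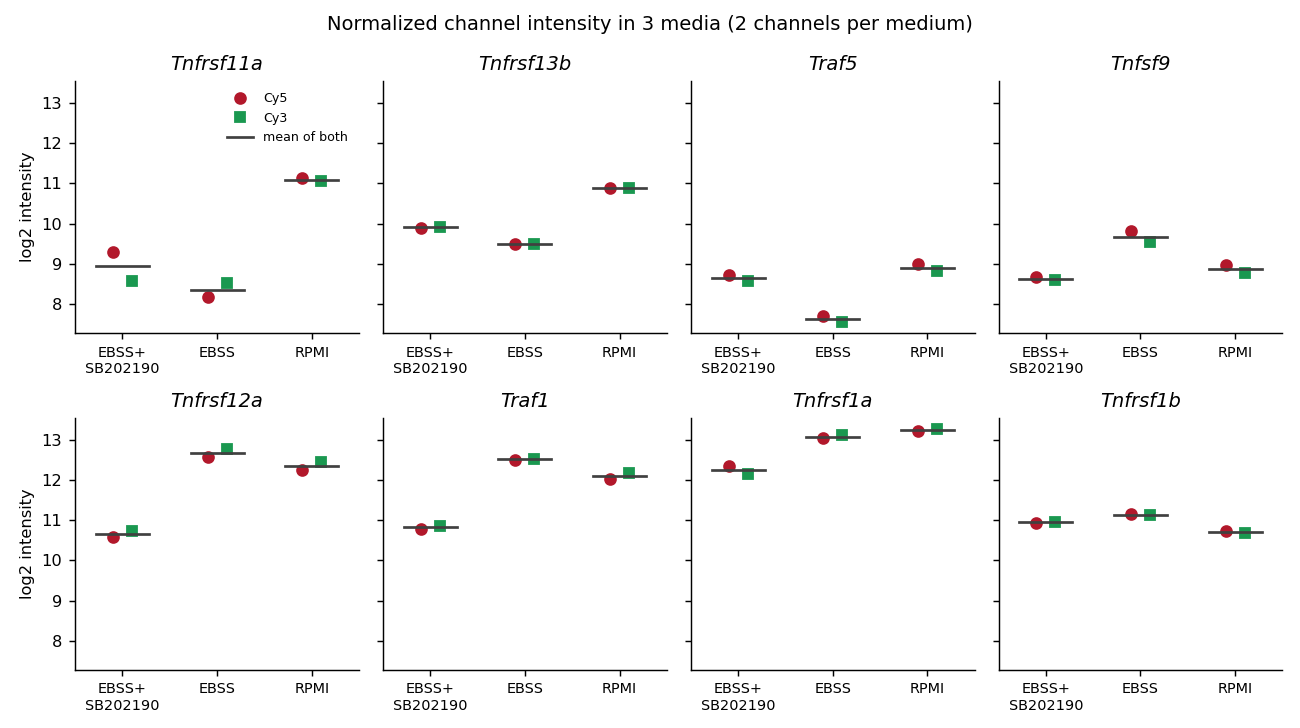
Normalized log2 intensity of the 6 counted genes and of both TNF receptors in EBSS with SB202190, EBSS and RPMI, with Cy5 as circles, Cy3 as squares and the mean of both channels as a bar. Tnfrsf11a and Tnfrsf13b are highest in RPMI, Traf5 and Tnfsf9 stand apart in EBSS, and Tnfrsf12a, Traf1 and Tnfrsf1a are lowest in EBSS with SB202190.

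Of the 21 receptors 9 were measured, and 8 were well above background in no channel. Tnfrsf11a is RANK, the receptor that drives osteoclast formation. It had log2 intensities in Cy5 and Cy3 of 9.30 and 8.57 in EBSS with SB202190, 8.18 and 8.53 in EBSS, and 11.13 and 11.06 in RPMI. Every EBSS channel, with or without inhibitor, was below both RPMI channels, and the channels of both EBSS media did not overlap, though the Cy3 values were close. The log2 ratio was -2.45 in EBSS against RPMI (technical SE 0.13), a 5.47-fold lower level, and -1.91 in EBSS with SB202190 against RPMI, a 3.75-fold lower level. SB202190 against EBSS gave 0.55, which was not counted. A second probe of the gene gave -1.20 in EBSS against RPMI, also counted as lower, -0.89 in EBSS with SB202190 against RPMI and 0.31 for SB202190 in EBSS, neither counted. The first probe lies at chr1:107674722-107674781 (mm8), and its 2 calls held under all 13 alternatives.

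Tnfrsf13b (TACI) binds Tnfsf13 and Tnfsf13b. Its log2 intensities were 9.89 and 9.92 in EBSS with SB202190, 9.5 and 9.49 in EBSS, and 10.89 and 10.88 in RPMI. The 3 media did not overlap, with RPMI highest and EBSS lowest. The log2 ratio in EBSS against RPMI was -1.40 (technical SE 0.13), a 2.64-fold lower level, with -1.39 on the array with both media and -1.41 on the other path, and it was counted under all 13 alternatives. EBSS with SB202190 against RPMI gave -0.98, just short of the threshold, and SB202190 against EBSS 0.42. The probe lies at chr11:60965192-60965251 (mm8). A second probe of the gene was well above background in no channel and was not measured, so the call rests on the brighter probe alone.

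Tnfrsf12a (Fn14), the receptor of TWEAK, had log2 intensities of 10.57 and 10.73 in EBSS with SB202190, 12.56 and 12.77 in EBSS, and 12.24 and 12.45 in RPMI. Both channels with the inhibitor lay below all others. The log2 ratio was -2.02 with SB202190 against EBSS (technical SE 0.14), a 4.07-fold lower level, and -1.69 in EBSS with SB202190 against RPMI, 3.22-fold lower. Both were counted under all 13 alternatives, several of which could not end a call. EBSS over RPMI gave 0.34, with 0.53 on the array with both media and -0.05 on the other path, so its direction was not settled. The probe lies at chr17:23403401-23403460 (mm8).

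The TNF receptors themselves were read by probes printed 10 times on each array. Tnfrsf1a, the death domain receptor of TNF, had log2 intensities of 12.35 and 12.14 in EBSS with SB202190, 13.03 and 13.11 in EBSS, and 13.21 and 13.26 in RPMI, so that the inhibitor channels were the lowest. Its log2 ratio was -0.86 with SB202190 against EBSS, -0.93 in EBSS with SB202190 against RPMI and -0.07 in EBSS against RPMI (technical SE 0.13), none counted. Over the 10 spots the ratio with SB202190 against EBSS ran from -0.91 to -0.82, which is spread within the arrays only. Tnfrsf1b, the TNF receptor that recruits Traf2, had 10.94 and 10.95 in EBSS with SB202190, 11.15 and 11.12 in EBSS, and 10.72 and 10.67 in RPMI. Its ratios were -0.17 with SB202190 against EBSS, 0.42 in EBSS against RPMI and 0.25 in EBSS with SB202190 against RPMI (technical SE 0.13), and a second probe gave -0.12, 0.18 and 0.06. Over the 10 spots of the first probe the ratio in EBSS against RPMI ran from 0.38 to 0.45, again within the arrays only.

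**Figure D3:**
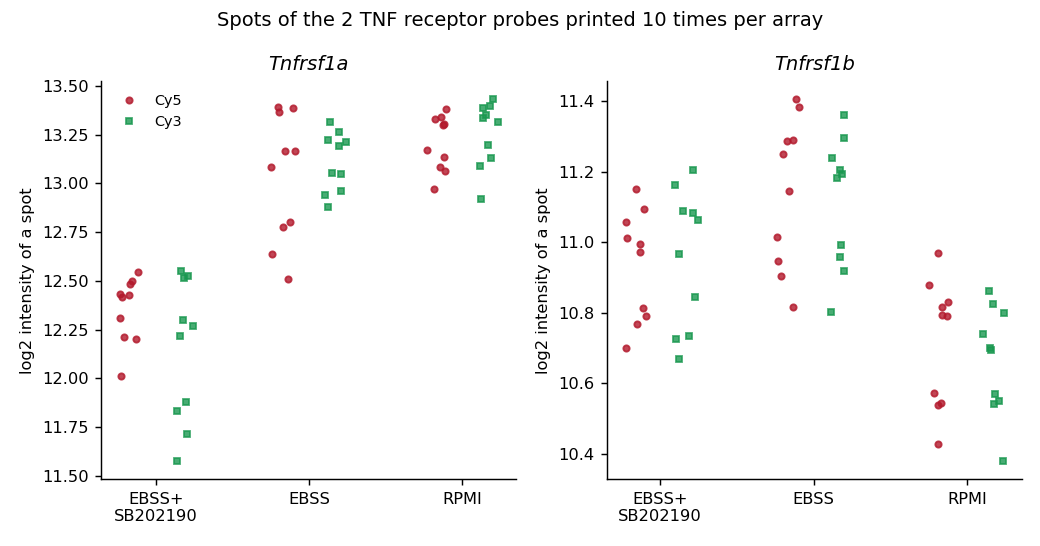
Log2 intensity of each of the 10 spots per array of the Tnfrsf1a and Tnfrsf1b probes by medium, Cy5 as circles and Cy3 as squares, on axes that do not start at 0. Tnfrsf1a spots range from 11.57 to 12.55 in EBSS with SB202190, against 12.51 to 13.39 in EBSS and 12.92 to 13.43 in RPMI. The ranges of both EBSS media thus overlap slightly. Tnfrsf1b spots of the 3 media overlap as well.

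Tnfrsf26, grouped here with the mouse decoy receptors, had 7.63 and 7.34 in EBSS with SB202190, 8.14 and 8.44 in EBSS, and 8.45 and 8.13 in RPMI. Its log2 ratios of -0.70 with SB202190 against EBSS and -0.61 against RPMI (technical SE 0.17) were not counted, and were -1.41 and -1.14, counted, with the software's normalization. With SB202190 only 1 of its 2 channels was well above background. Both ratios were thus measured only through EBSS or RPMI, where its level was higher. The other decoy measured, Tnfrsf22, gave -0.15, -0.06 and -0.21 for SB202190 in EBSS, EBSS over RPMI and EBSS with SB202190 over RPMI. The remaining TRAF-binding receptors measured were Tnfrsf4 (OX40) and Relt, whose ratios lay between -0.35 and 0.20 in the 3 comparisons. Tnfrsf13c, Tnfrsf17, Tnfrsf19, Tnfrsf8, Tnfrsf9, Tnfrsf25, Tnfrsf11b and Tnfrsf23 were the 8 receptors above background in no channel. Tnfrsf10b, Tnfrsf14, Tnfrsf18 and Tnfrsf21 were so in 1 or 2 channels and were measured in no comparison.

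All 7 TRAF adaptors were well above background in all 6 channels, and 2 of them were counted. Traf1 lacks the RING domain of the other TRAF proteins, pairs with Traf2 and is itself a target gene of NF-kappaB. It had log2 intensities in Cy5 and Cy3 of 10.77 and 10.86 in EBSS with SB202190, 12.50 and 12.52 in EBSS, and 12.02 and 12.16 in RPMI. The inhibitor channels lay below all others. The log2 ratio was -1.72 with SB202190 against EBSS (technical SE 0.14), a 3.29-fold lower level, and -1.30 in EBSS with SB202190 against RPMI, 2.47-fold lower. EBSS against RPMI gave 0.42. With median centring the ratio for SB202190 in EBSS was still -1.56, but it was not counted, as the rule on the 2 paths was not met. This was the only one of 13 alternatives that ended this call. The probe lies at chr2:34765371-34765430 (mm8).

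Traf5, an adaptor of CD40 and lymphotoxin beta receptor signalling, was low in EBSS alone. It had 8.73 and 8.59 in EBSS with SB202190, 7.70 and 7.57 in EBSS, and 9.0 and 8.82 in RPMI. The EBSS channels lay below all others, and the channels with inhibitor came just below those of RPMI. The log2 ratio was 1.04 with SB202190 against EBSS (technical SE 0.16), a 2.06-fold higher level, and -1.28 in EBSS against RPMI, a 2.43-fold lower level. Against RPMI the level in EBSS with SB202190 differed by -0.24. Each of both calls was lost under 4 of 13 alternatives, among them the outlying local backgrounds kept, where the ratios were 0.38 and -0.54, while the software's normalization gave 1.62 and -1.92. The probe lies at chr1:193697839-193697898 (mm8).

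The other TRAF adaptors stayed below the threshold. Traf2, the adaptor of Tnfrsf1b and of the Tnfrsf1a complex, had 11.99 and 12.10 in EBSS with SB202190, 11.75 and 11.48 in EBSS, and 10.98 and 11.13 in RPMI. Its media did not overlap, and its log2 ratios were 0.35 with SB202190 against EBSS, 0.51 in EBSS against RPMI and 0.86 in EBSS with SB202190 against RPMI (technical SE 0.12). Traf7, an adaptor whose WD40 repeats replace the usual TRAF domain, had 11.35 and 11.38 in EBSS with SB202190, 10.56 and 10.45 in EBSS, and 11.27 and 11.23 in RPMI. Its ratios were 0.86 with SB202190 against EBSS and -0.78 in EBSS against RPMI (technical SE 0.13), with EBSS lowest in both channels.

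Traf3, which with Traf2 and Birc2 keeps the kinase Map3k14 low, had 10.87 and 10.88 in EBSS with SB202190, 10.37 and 9.99 in EBSS, and 10.38 and 10.36 in RPMI. It gave 0.64 with SB202190 against EBSS, -0.25 in EBSS against RPMI, where channels overlapped, and 0.38 in EBSS with SB202190 against RPMI (technical SE 0.13). Traf6, the adaptor of RANK, CD40 and the Toll-like receptors, had 8.64 and 8.69 in EBSS with SB202190, 9.06 and 8.64 in EBSS, and 8.19 and 8.25 in RPMI. Its ratios were -0.26, 0.56 and 0.29 in the same order (technical SE 0.15), and the channels of both EBSS media overlapped. Traf4 gave 0.32, -0.48 and -0.16 (technical SE 0.14), from 8.95 and 8.84 in EBSS with SB202190, 8.62 and 8.61 in EBSS, and 9.19 and 9.01 in RPMI.

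Of the TRAF3-interacting genes, Traf3ip1, a protein of transport in cilia, had 8.51 and 8.32 in EBSS with SB202190, 8.03 and 7.99 in EBSS, and 8.98 and 8.98 in RPMI. Its log2 ratio in EBSS against RPMI was -0.91 (technical SE 0.16), not counted, and -1.26, counted, with the software's normalization. Traf3ip2, the adaptor Act1 of the interleukin 17 receptor, and Traf3ip3 had ratios between -0.35 and 0.12. Psmg2 gave 0.58 with SB202190 against EBSS, -0.52 in EBSS against RPMI and 0.07 in EBSS with SB202190 against RPMI (technical SE 0.14), and its second probe 0.49, -0.51 and -0.03.

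**Figure D4:**
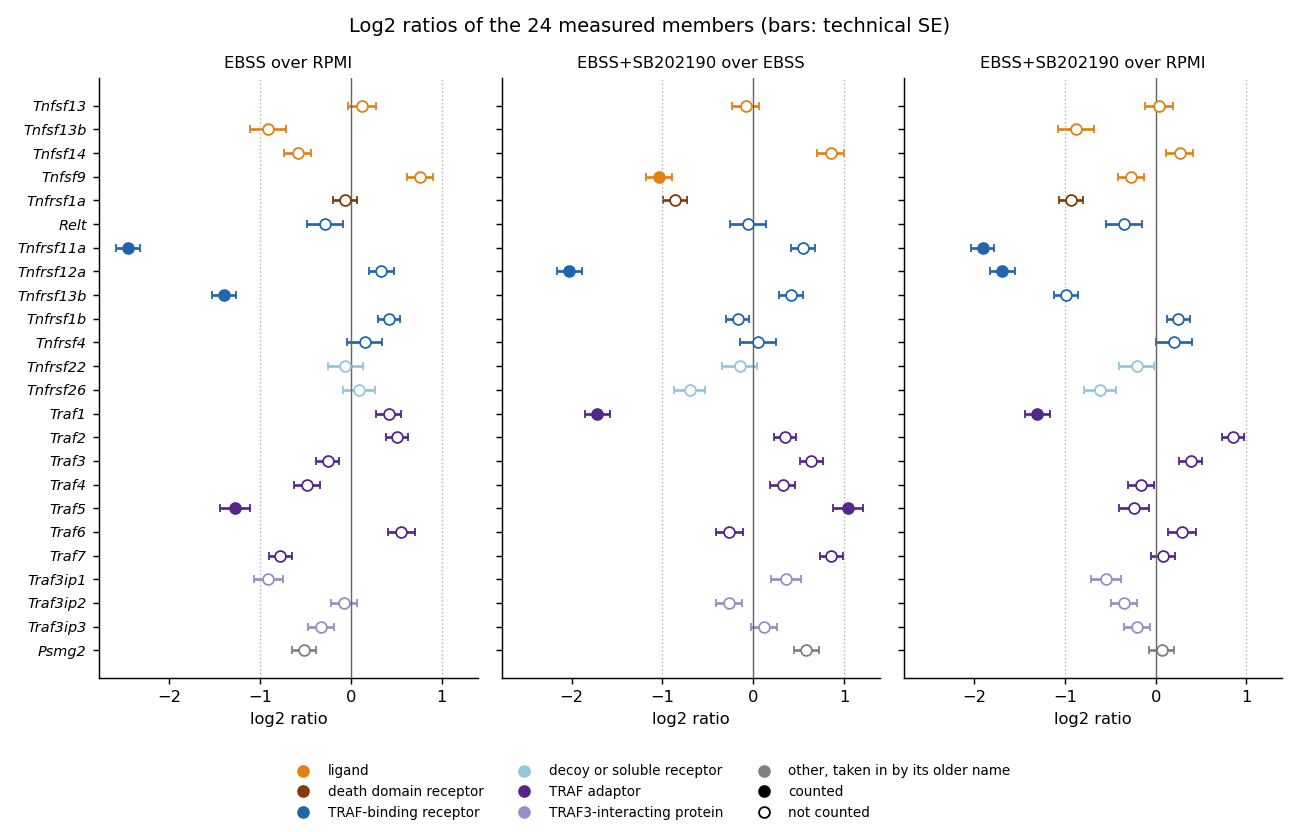
Log2 ratio of the 24 measured genes in EBSS over RPMI, EBSS+SB202190 over EBSS and EBSS+SB202190 over RPMI, coloured by role, with bars for the technical SE, filled points for counted genes and dotted lines at a ratio of 1 in size. Filled points lie to the left of 0 in all panels except Traf5 at 1.04 with SB202190 against EBSS.

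The 48 other genes of the pathway held further ligands and receptors, the adaptors and kinases of the receptor complexes and the shedding proteases Adam10 and Adam17, and 38 were well above background in all 6 channels. In EBSS against RPMI, 4 of the 39 measured passed the threshold upwards and 1 downwards, beside 6.34% and 5.78% of all measured genes, and their median was -0.17. The higher ones were Tank at 2.33 and Tbk1 at 1.17, a TRAF-binding scaffold and the kinase it holds, Cflar at 2.07, the inhibitor of caspase 8, and the receptor Cd40 at 1.03. Birc2, a ubiquitin ligase that binds Traf2, was lower at -1.50. Of 13 alternatives, run for these genes after seeing the data, Tank and Cflar were counted in all, Tbk1 in all but median centring, Birc2 in all but the outlying backgrounds kept, and Cd40 in 8.

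With SB202190 against EBSS, 2 of the 40 measured passed it upwards and 2 downwards, beside 3.02% and 5.14% of all measured genes, and the median was 0.04. The kinase Map3k14, of the alternative NF-kappaB pathway, was higher at 1.04 (technical SE 0.14), counted in 10 of 13 alternatives. It gave -0.98 in EBSS against RPMI and 0.06 in EBSS with SB202190 against RPMI, neither counted. Map3k8, a kinase upstream of ERK, was not well above background in either EBSS channel. It was among the 40 measured only through the medium with SB202190, where its level was higher. Its level with SB202190 was at least 2.05-fold higher, from the brighter medium's mean against the lowest signal well above background, or the probe's own where higher, per EBSS array. Its fitted log2 ratio of 1.14 (technical SE 0.24) ran from 0.31 to 2.98 over the alternatives, and its call was lost without background correction and with outlying backgrounds kept. Cflar at -1.48 and Tank at -1.47 were lower, and median centring alone of the 13 alternatives ended both calls. Under the alternatives that give a ratio of their own, Cflar stayed at -1.26 or lower and Tank at -1.34 or lower. Both calls were thus lost by the rule on the 2 paths. Tbk1 gave -0.74 and Cd40 -0.60, and Birc2 0.999, just short of the threshold, so that none of them was counted. In EBSS with SB202190 against RPMI, 0 of 39 were counted as higher and 2 as lower, beside 2.39% and 4.17% of all measured genes. They were Casp8 at -1.10 and Tnip2, an inhibitor of NF-kappaB signalling, at -1.06 (lost under the same 2 settings), with a median of 0.06.

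**Figure D5:**
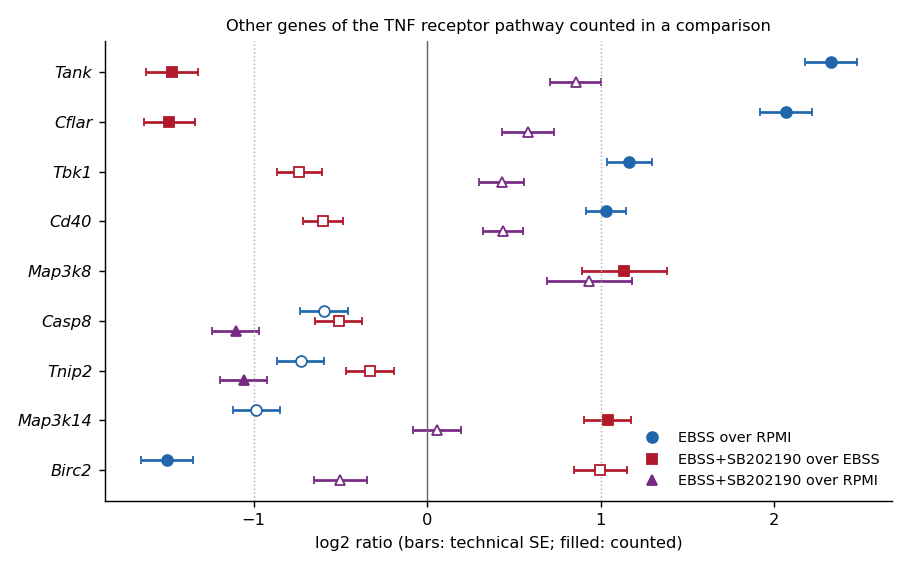
Log2 ratios of the 9 other pathway genes counted in a comparison, with EBSS over RPMI as circles, EBSS+SB202190 over EBSS as squares and EBSS+SB202190 over RPMI as triangles, bars for the technical SE and filled symbols for counted values; the square of Map3k8 is set against a level not well above background in EBSS. Tank and Cflar have the highest circles, at 2.33 and 2.07, and squares at -1.47 and -1.48.

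Among the macrophage markers, 2 of 9 measured, Cd14 and Fcgr1, were also counted as lower with the inhibitor. So were 5.14% of all measured genes against EBSS and 4.17% against RPMI. Cd14 gave -1.69 and Fcgr1 -1.40 with SB202190 against EBSS, and -1.91 and -1.48 in EBSS with SB202190 against RPMI, and median centring ended both calls against EBSS. Under it both ratios were still beyond 1 in size, so these calls were lost by the rule on the 2 paths. Of the 9 macrophage markers measured, 8 had a ratio below 0 with SB202190 against EBSS (median -0.33), 9 in EBSS with SB202190 against RPMI (median -0.47) and 6 in EBSS against RPMI (median -0.04). The medians over all measured genes were 0.02, 0.00 and -0.03 in the same order. The share of all measured genes below 0 is not given here. Spi1, a transcription factor of macrophages, gave -1.30 in EBSS with SB202190 against RPMI but was not counted, with -1.82 on the array with both media and -0.27 on the other path. The part of these marker levels in the lower Tnfrsf12a and Traf1 levels was not tested.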

How the data were processed

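RNA of J774A.1 cells in 3 media was read on 3 two-colour Agilent arrays of 1 slide. Agilent Feature Extraction (version 9.5.3.1 in the submitters' processing notes) read the spots. Per spot, the deposited files give mean and local background intensity without normalization, a processed intensity, and its log10 ratio of Cy5 over Cy3, per the file headers. Other deposited marks say whether a spot is a control, an outlier or well above background. The authors' series table of log2 ratios matched the log2 of the software's ratio to a median difference of at most 3.4e-07, so its scale, lack of centring (medians -0.0855, -0.0766 and -0.166) and direction are known.

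The mean intensities were corrected for background by normexp with an offset of 50 and normalized by loess in limma 3.58.1 (R 4.3.3), with control spots at weight 0 and outlier spots left out. Channel levels were then made comparable with Aquantile. A few very high local backgrounds bent the normexp fit: on array 1 the lowest net Cy5 value was -36566, and the fitted background mean was -572, against 22.2 after correction. Local backgrounds marked as outliers by the scanner software were therefore set to the median of their array and dye, a choice made after seeing the data, with the other version as an alternative. Ratios were fitted by least squares to all 3 arrays. The technical SE is a robust SD of the loop's closure in 30 intensity bins, scaled to the SE of a fitted ratio (median 0.136 over measured genes). Python 3.11.15, numpy 2.4.6, pandas 2.3.3 and matplotlib 3.10.9 were used. The code for the ratios was also run on simulated arrays with known ratios, which checks the code only.

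Of 60 probes of the family, 53 were named through an accession in RefSeq's GRCm38.p6 table and 7 by symbol. Where a gene had several probes, the one of highest mean intensity was used. Second probes of Tnfrsf13b, Tnfsf13b, Traf3ip1, Traf4 and Traf6 were too dim to be measured. Named are all counted genes, measured ones with a ratio of at least 0.58 in size on paths of the same sign, Tnfrsf1a, Tnfrsf1b, Traf1 to Traf6, counted genes of the pathway list, and unmeasured genes by name only; the other measured genes were added after their values were seen. The genes and lists were chosen with earlier results of these data known. In all, 12 alternatives were planned and 1 added.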

Additional observations from a re-analysis of the deposited data

How the results depend on the processing

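No paired analysis was possible because each medium is 1 sample and the labels give no replicate numbers. Counted log2 ratios of the family, the pathway list and the macrophage markers kept their sign under each alternative that gives a ratio of its own. Under all 13 alternatives both calls of Tnfrsf11a and Tnfrsf12a, that of Tnfrsf13b in EBSS against RPMI and that of Traf1 in EBSS with SB202190 against RPMI held. Several of the 13 could not end a call, as given above for Tnfsf9. For EBSS against RPMI, 3 genes of the family counted as lower became 5 with the scanner software's log ratio, the series table or a normexp offset of 10 (with Tnfsf13b and Traf3ip1), and 7 at a threshold of 0.58 with 0.29 on each path; 0 counted as higher became 1, Tnfsf9, at that threshold and on the path through the other 2 arrays alone. For SB202190 in EBSS, 1 counted as higher became 2 with the software, the series table or offset 10 (with Tnfsf14), 5 at 0.58, and 0 without background correction, with equal spread between arrays, on the array with both media alone or with outlying local backgrounds kept. The 3 counted as lower there became 1, Tnfrsf12a, with median centring and 5 at 0.58. For EBSS with SB202190 against RPMI, 3 counted as lower became 5 with the software, the series table, offset 10 or equal spread and 7 at 0.58, where 0 counted as higher became 1, Traf2. The other 56 counts of the family stayed within 1.5 times; among them the 3 lower in EBSS against RPMI became 2, without Traf5, with median centring, without background correction, on the other path alone and with outlying backgrounds kept. Over all genes, SB202190 in EBSS gave 353 higher and 601 lower, against 781 and 771 with the software, 404 and 112 with median centring, and 104 and 342 with outlying backgrounds kept; EBSS against RPMI gave 753 and 686, against 961 and 1094, 330 and 364, and 532 and 335 in the same order; EBSS with SB202190 against RPMI gave 283 and 495, against 472 and 773, 67 and 516, and 174 and 288. With outlying backgrounds kept, 46 of 53 ratios of named genes of the family were smaller in size and 7 larger. The cause of these shifts was not tested. Ratios of dim probes such as Tnfsf13b and Tnfrsf26 are limited by signal over background. Each comparison in which an alternative counted these genes as lower was measured only through its brighter medium.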
